A study of Mus musculus with 11 samples.

Results

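Natural killer (NK) cells made up 114 of the 50625 cells kept from single-cell preparations of mouse brain cortex. A kept cell had more than 500 and fewer than 6000 detected genes and less than 25% of its unique molecular identifiers (UMIs, each counting 1 captured mRNA molecule) from mitochondrial genes, and the 11 libraries held 54646 barcodes before this filter. A kept cell was called an NK cell when it held at least 2 UMIs of Nkg7, at least 2 UMIs summed over Ncr1, Klrb1c and Gzma, no UMI of Cd3d, Cd3e or Cd3g, at most 3 UMIs summed over C1qa, Csf1r and Lyz2, and at most 2 UMIs summed over Cldn5 and Flt1. T cells, the population NK cells were compared with, were the 1738 kept cells with at least 2 UMIs over the 3 Cd3 genes and the same upper limits on the myeloid and endothelial genes, and 1083 of them also held at least 2 UMIs of Nkg7.

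The study profiled vessel-associated and other non-neuronal cells of the cortex across age and in experimental autoimmune encephalomyelitis (EAE), a T cell-driven model of multiple sclerosis. All mice were C57BL/6, and the methods give females as the sex used. Juvenile mice were taken at postnatal day 10 (4 libraries), Adult mice at 7 to 11 weeks (3 libraries), Aged mice at 18 months (2 libraries) and EAE mice at 7 to 11 weeks and the peak of disease (2 libraries). Juvenile, Adult and Aged mice were untreated, and EAE mice had received myelin oligodendrocyte glycoprotein peptide in Complete Freund's Adjuvant under the skin, and pertussis toxin. Tissue was pooled from 6 mice for Juvenile and Adult samples and from 3 for Aged and EAE samples, and the sources do not say whether libraries of a group came from separate pools. Mice were perfused before dissection, meninges were removed by dabbing, and myelin was depleted, so the cells counted here are those that survived these steps. No Aged mice with EAE and no adjuvant-only mice were among the samples, so age, disease and immunisation cannot be told apart in a comparison of EAE with Aged libraries, and disease and immunisation cannot be told apart in a comparison of EAE with Adult libraries.

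NK cells are innate lymphocytes that kill target cells with perforin and granzymes without a rearranged antigen receptor. They read targets through activating and inhibitory receptors, many of them killer cell lectin-like receptors, and pass activating signals through adaptors such as Tyrobp (DAP12) and Fcer1g. Nkg7 is a granule protein shared with cytotoxic T cells, Ncr1 encodes the activating receptor NKp46, Klrb1c encodes NK1.1, and Gzma encodes a granzyme. Type 1 innate lymphoid cells (ILC1), close relatives that often stay in tissues, also carry Ncr1 and Klrb1c, so the rule does not separate them from NK cells.

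Promoter sequence is shown for Nkg7 and Ncr1, as genes of the rule, and for Xcl1 and Cxcr6, as genes that differed between EAE and Aged NK cells. The sequences are from RefSeq on build GRCm38.p6, read 5′ to 3′ on the gene's strand and ending before its earliest annotated start, at chr7:43436888-43437072 (plus strand, Nkg7), chr7:4337465-4337714 (plus strand, Ncr1), chr1:164935528-164935772 (minus strand, Xcl1) and chr9:123806227-123806474 (plus strand, Cxcr6). Capitals mark a core RUNX motif (TGTGGT, or ACCACA on the other strand) or a T-box motif (GGTGTGA, or TCACACC on the other strand).
Nkg7: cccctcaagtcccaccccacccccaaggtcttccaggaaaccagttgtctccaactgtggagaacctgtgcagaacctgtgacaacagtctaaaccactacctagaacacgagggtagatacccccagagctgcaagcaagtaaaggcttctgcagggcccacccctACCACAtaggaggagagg
Ncr1: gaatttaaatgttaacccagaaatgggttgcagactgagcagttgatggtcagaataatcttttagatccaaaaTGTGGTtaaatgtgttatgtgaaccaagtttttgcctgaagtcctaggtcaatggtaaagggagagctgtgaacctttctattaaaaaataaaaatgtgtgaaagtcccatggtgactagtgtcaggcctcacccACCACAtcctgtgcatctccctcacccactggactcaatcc
Xcl1: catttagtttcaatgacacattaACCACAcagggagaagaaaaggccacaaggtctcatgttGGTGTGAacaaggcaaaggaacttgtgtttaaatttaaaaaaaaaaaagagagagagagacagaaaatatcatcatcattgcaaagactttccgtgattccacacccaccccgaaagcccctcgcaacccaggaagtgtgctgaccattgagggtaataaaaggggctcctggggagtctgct
Cxcr6: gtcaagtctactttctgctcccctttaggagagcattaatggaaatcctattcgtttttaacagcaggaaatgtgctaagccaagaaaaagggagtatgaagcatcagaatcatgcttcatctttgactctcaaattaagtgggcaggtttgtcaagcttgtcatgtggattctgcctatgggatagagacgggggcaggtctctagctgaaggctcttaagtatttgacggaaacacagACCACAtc

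The RUNX letters occurred in the promoter windows of all 4 rule genes and in 3832 of 27025 promoter windows in the table (14.2%). Among the 10 genes with the largest difference in favour of NK cells over T cells, 6 had a window in the table and 2 of these, Klrb1a and Klre1, held the RUNX letters. The T-box letters occurred in 894 windows (3.31%), among the rule genes in Nkg7 alone, where they lay beyond the stretch printed. A match of this kind describes the sequence and does not show a bound site.

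The rule genes are described without a test, because they chose the cells. NK cells held a median of 9 UMIs of Nkg7 (range 2 to 37), 1 of Ncr1 (0 to 10), 3 of Klrb1c (0 to 9) and 11 of Gzma (0 to 143). Of the 114 cells, 112 held Ncr1 or Klrb1c and 55 held all 3 of the summed genes, so Gzma alone chose 2 cells. At the edge of the rule, 8 NK cells held exactly 2 Nkg7 UMIs, 7 held exactly 2 summed UMIs, and 2 did both. Just outside it, 3 cells missed by 1 Nkg7 UMI, 7 by 1 summed UMI and 15 by 1 Cd3 UMI, and all cells in these 3 sets held Fcer1g. A further 195 cells met the NK side of the rule but held 2 or more Cd3 UMIs, and 41.0% of these held Fcer1g. The myeloid and endothelial limits alone left out 30 cells, 0 Juvenile, 7 Adult, 3 Aged and 20 EAE, and 96.7% of them held Fcer1g. At the limit of 2 endothelial UMIs stood 0 Juvenile, 6 Adult, 4 Aged and 2 EAE NK cells. How far the NK shares of the groups depend on these 2 limits was not tested.

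The label was checked against genes that the rule did not use, with no test. The adaptor gene Fcer1g was detected in 114 of 114 NK cells, in 413 of 1738 T cells (23.8%) and in 19.5% of 20773 endothelial cells, the last being a cell type that should lack it. After every cell was thinned to 1500 UMIs, Fcer1g remained in 102 of 110 NK cells, 13.05% of T cells and 9.60% of endothelial cells. Klrd1, which encodes the partner chain CD94 of NKG2 receptors, was found in 100 NK cells (87.7%, thinned 69.1%), in 27.4% of T cells (thinned 18.2%) and in 0.409% of endothelial cells (thinned 0.228%). Klrk1, encoding the activating receptor NKG2D, was found in 99 NK cells (86.8%, thinned 77.3%), in 18.8% of T cells (thinned 11.97%) and in 0.221% of endothelial cells (thinned 0.112%). Median depth was 3382 UMIs in NK cells, 2964.5 in T cells and 2884 in endothelial cells. Eomes, a T-box factor of NK cells, was found in 48 NK cells (42.1%, thinned 23.6%), in 6.85% of T cells (thinned 4.49%) and in 0.120% of endothelial cells (thinned 0.0425%). Trbc2, a T cell receptor constant gene, was found in 49.1% of NK cells against 90.0% of T cells and 0.563% of endothelial cells (thinned 35.5%, 78.0% and 0.255%), so NK cells held it above the endothelial share. Trac was seen in 0 NK cells, but in only 3.16% of T cells, so this gene does not separate the populations in these counts. Only 3 NK cells held a UMI of Cd4, Cd8a, Cd8b1 or Trac.

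Libraries differed in ways that touch these results. Total UMIs per library ran from 15755504 to 34326349, with the most in EAE 1 and EAE 2, which also held the most kept cells. Median UMIs per kept cell were 3072.5 and 3153 in these, within the 2420 (Aged 1) to 4199.5 (Juvenile 3) of the other libraries. NK cells had medians of 2398 UMIs in Juvenile, 3566 in Adult, 2245 in Aged and 3470 in EAE. No NK cell barcode occurred in more than 1 library, while kept cells of a pair of libraries shared 10 to 113 barcodes. In endothelial cells, Adult 1 differed from the other Adult libraries at a chi-square per degree of freedom of 24.2 and 25.8, whereas Adult 2 and 3 differed from each other at 2.39. Adult 2 and 3 were summed into 1 unit because earlier results on these data had found their counts alike, and their value here was 2.39. The value was near this for Juvenile 1 and 2 (2.26), the Aged pair (2.82), the EAE pair (2.47) and the pair of Juvenile 3 and 4 (2.41). Summed counts were not brought to equal depth, so these values do not rank the pairs by likeness. The libraries of these other pairs were kept apart and count as separate units, so p-values measure the spread between libraries, which may be technical. In microglia the chi-square per degree of freedom was 1.54 for Adult 2 and 3, 2.64 for the Aged pair and 3.16 for the EAE pair. Scrublet marked 818 of the 50625 kept cells (1.62%) as doublets, among them 1 NK cell from Juvenile 3. It marked 31 of 5093 cells in Aged 1 and 2 of 4752 in Aged 2 (0.335% together), so few that doublets there may have been missed.

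NK cells were a small population in every group and took their largest share of kept cells in EAE. The 36 NK cells of EAE 1 and the 33 of EAE 2 made up 0.433% and 0.408% of kept cells. In the Aged libraries 14 cells (0.275%) and 5 cells (0.105%) were found, and in Adult libraries 1, 2 and 3 the counts were 2 (0.0628%), 7 (0.185%) and 6 (0.154%). Juvenile 3 and 4 held 4 (0.0960%) and 7 (0.170%) NK cells, and Juvenile 1 and 2 held 0, where 3 counts would be a share of 0.112% and 0.118% and the exact binomial 95% upper limit is 0.138% and 0.144%. Both EAE libraries lay above every other library.

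Over groups, the exact binomial 95% interval was 0.327% to 0.532% in EAE, 0.0774% to 0.228% in Adult, 0.116% to 0.301% in Aged and 0.0407% to 0.146% in Juvenile, and these intervals cover counting error only. The mean over units was 0.420% ± 0.0177 (SD, n = 2) in EAE, 0.190% ± 0.120 (n = 2) in Aged, 0.116% ± 0.0754 (n = 2) in Adult and 0.0666% ± 0.0827 (n = 4) in Juvenile. EAE exceeded Adult 3.62-fold without overlap (2.48-fold without Adult 1 and 6.69-fold without Adult 2 and 3), and the exact two-sided permutation test gave p = 0.33, the smallest value that 2 units against 2 allow. EAE against Aged also gave p = 0.33 without overlap, whereas Aged and Adult units overlapped (exact permutation p = 0.667), as did Juvenile and Adult units (exact permutation p = 0.667, where 0.133 was the smallest possible). Adjusted over these 4 comparisons by Benjamini-Hochberg, the exact tests all gave p = 0.667.

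**Figure D1:**
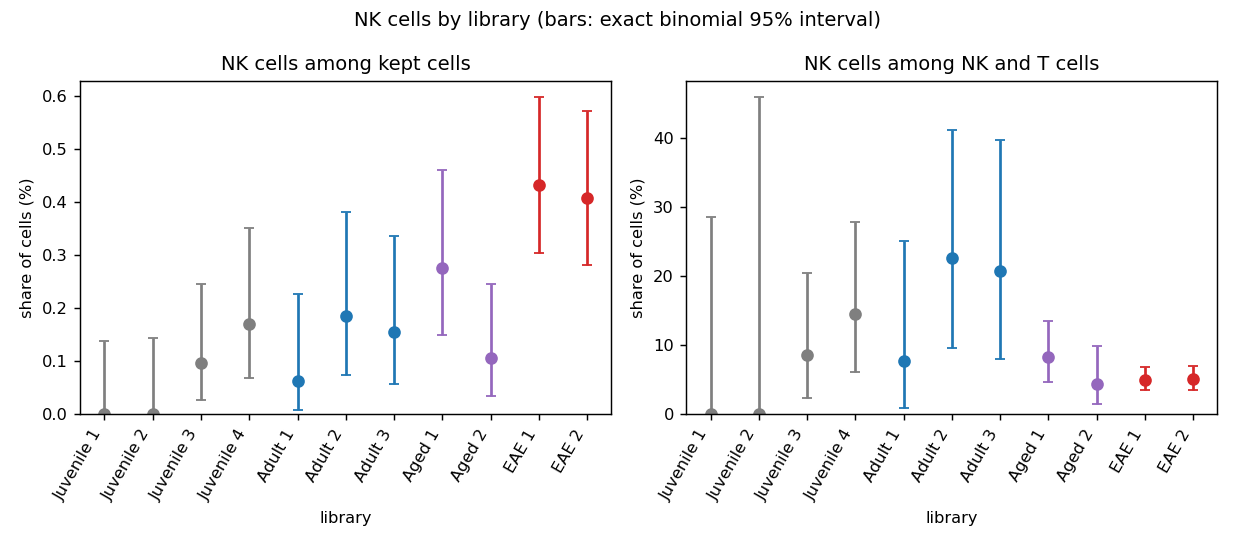
NK cells by library, as a percentage of kept cells (left) and as a percentage of NK and T cells together (right), with exact binomial 95% intervals as bars and colours for groups. EAE 1 and 2 are highest on the left (0.433% and 0.408%) and among the lowest of the libraries with NK cells on the right (5.0% and 5.07%).

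Against T cells the order of the groups turned. T cells made up 0.683% of kept cells in Adult units, 2.67% in Aged and 7.93% in EAE units (means of 2 units; these groups did not overlap, exact permutation p = 0.33 for each pair). Among NK and T cells together, NK cells were 5.0% and 5.07% in EAE 1 and 2, 8.28% and 4.39% in Aged 1 and 2, and 7.69% and 21.7% in Adult 1 and in Adult 2 and 3 summed. The EAE units lay below both Adult units (exact permutation p = 0.33) and within the span of the Aged units (exact permutation p = 1). These shares come from pools after digestion and myelin depletion, so losses that differ between cell types and true numbers cannot be told apart.

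Summed counts per unit were then compared between NK and T cells in the 6 units that held at least 5 NK cells (Juvenile 4, Adult 2 and 3, Aged 1, Aged 2, EAE 1 and EAE 2), with the unit as a block. Levels are given in CPM, the gene's UMIs over the summed cells scaled to the same total in every unit, always in that order of units, and folds are log2 values from edgeR's quasi-likelihood test with Benjamini-Hochberg adjusted p. Of 1623 genes tested, 134 were called (8.26%), 65 higher in NK cells (4.0%) and 69 lower (4.25%), and 329 had an unadjusted p under 0.05. These counts include the 4 rule genes on the higher side and the 3 Cd3 genes on the lower side, which differ by the choice of cells. The count was 74 without EAE 1 and 205 without Juvenile 4. Since Cd3 genes and the 4 rule genes chose the cells, genes that go with them were expected to differ by the choice, and the values are a description of how these cells stand against T cells. The median log2 fold over all tested genes was -0.03.

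Killer cell lectin-like receptor genes were the group with the most uniform difference. Of 17 listed genes 9 were tested and 8 were called higher in NK cells, none lower, with a median log2 fold of 3.74. Klri2, a receptor gene at chr6:129729041-129740484 (minus strand, GRCm38), stood at 429, 371, 334, 216, 322 and 402 CPM in NK cells and at 0, 0, 2.88, 13.3, 8.73 and 4.87 CPM in T cells. The ranges did not overlap, and its log2 fold of 5.76 ± 0.34 (SE, edgeR adjusted p = 6.31e-11) was the largest among the named genes outside the rule. Klrb1a (5.59 ± 0.53), Klrb1b (4.27 ± 0.32) and Klrb1f (3.63 ± 0.36), neighbours of Klrb1c in the NKR-P1 family, were called as well. Klre1, whose protein is the partner of Klri2, stood at 268 to 1261 CPM in NK cells and 8.85 to 147 CPM in T cells (3.74 ± 0.27). Klrk1 (2.76 ± 0.22) and Klrd1 (2.31 ± 0.25) had smaller folds, and T cells carried them at medians of 143 and 184 CPM. Klrc1, encoding NKG2A, had medians of 471 CPM in NK cells and 197 CPM in T cells (0.97 ± 0.26, edgeR adjusted p = 0.0233), a call lost in 11 of 22 alternatives, among them T cells restricted to those with Nkg7 (log2 fold 0.39).

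All 18 genes of this family that were looked up, Klrb1c included, lie on chromosome 6 between 122270596 and 130386874. That span held 24 of the tested genes, 10 of them called higher in NK cells, Klrb1c of the rule included, and 2 lower. Beside family members, Cd9, a tetraspanin gene, was called higher there. Klra genes, which encode Ly49 receptors, are close copies of each other, so reads may be split between them or lost, and their single values are uncertain. Any of the listed Klra genes was found in 74 NK cells (64.9%), 3.97% of T cells and 0.188% of endothelial cells. By group these were 2 of 11 Juvenile, 10 of 15 Adult, 12 of 19 Aged and 50 of 69 EAE NK cells. These counts were not thinned to equal depth, and NK depth differed between groups.

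Of 5 tested adaptor and signalling genes 2 were called higher in NK cells and 1 lower. Tyrobp stood at 2197, 2182, 3113, 2376, 1947 and 2245 CPM in NK cells and at 99.2 to 253 CPM in T cells, a log2 fold of 4.0 ± 0.21 (edgeR adjusted p = 1.46e-11) that was called in all 22 alternatives. Fcer1g had medians of 2378 and 144 CPM (3.75 ± 0.38, edgeR adjusted p = 0.000147), with a log2 fold of 3.27 to 4.67 in all 22 alternatives, and its call was lost against T cells with Nkg7 and in the untreated adult and aged units alone. Hcst, the adaptor of NKG2D, had medians of 801 CPM in NK cells and 902 CPM in T cells and did not pass (edgeR adjusted p = 0.729). Cd247, the zeta chain that signals for T cell and some NK receptors, was the lower one at medians of 70.3 and 178 CPM (-1.46 ± 0.33, edgeR adjusted p = 0.00598). Lat, the scaffold of T cell receptor signalling, was lower in NK cells at a median of 111 against 676 CPM (log2 fold -3.13 ± 0.31). Microglia also carry Tyrobp and Fcer1g. The 10 listed microglia genes summed to 161 to 746 CPM in NK units and 266 to 640 CPM in T units, and none of the 3 tested was called. The list holds C1qa and Csf1r, which were limited in NK and T cells alike when the cells were chosen. C1qb, which the rule does not use, had medians of 146 CPM in NK cells and 138 CPM in T cells.

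Among cytotoxic genes 4 of 9 tested were higher in NK cells and none lower (median log2 fold 0.96). Serpinb6b, a serpin inhibitor, had medians of 575 CPM in NK cells and 68.7 CPM in T cells (2.55 ± 0.22), and Ctsw, a cathepsin of killer cells, had 881 and 361 CPM (1.23 ± 0.20). Gzmb had NK levels of 107, 975, 1132, 2879.6, 802 and 900 CPM against 66.2 to 393 CPM in T cells, but did not pass (edgeR adjusted p = 0.0693). Prf1, encoding perforin, was found in 9 NK cells, 11 T cells and 6 endothelial cells and was too sparse to test.

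Of 9 tested transcription factor genes 3 were higher in NK cells and 1 lower. Irf8 had medians of 526 CPM in NK cells and 30.7 CPM in T cells (4.18 ± 0.41, edgeR adjusted p = 4.15e-05), with NK values spread from 268 to 1728 CPM. Id2, needed by innate lymphocytes, was higher by 0.79 ± 0.21 (edgeR adjusted p = 0.0191), and this call was lost in 10 of 22 alternatives. Runx3, a factor of cytotoxic lymphocytes, was higher by 0.91 ± 0.27 (edgeR adjusted p = 0.0416). Ets1, a factor of both lineages, was the lower one at medians of 372 and 677 CPM (-0.81 ± 0.23, edgeR adjusted p = 0.0285, called in 11 of 22 alternatives). Eomes stood at 268, 348, 129, 0, 130 and 192 CPM in NK cells, and at 35.4, 35.1, 196, 210, 9.15 and 11.5 CPM in T cells. The cell types overlapped, with both Aged T units above the Aged NK units (edgeR adjusted p = 0.284). Tbx21 did not pass (medians 131 and 79.5 CPM, edgeR adjusted p = 0.26). Bcl11b, a factor that keeps T cell identity, had 0 UMIs in NK cells and 124 to 161 CPM in T cells, which puts it at least 16.5-fold lower in NK cells at a floor of 3 counts over the group.

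Further genes with large folds outside the fixed lists were Spry2, an inhibitor of receptor signalling (medians 787 and 39.9 CPM, 4.17 ± 0.49), Car2, a carbonic anhydrase (487 and 25.2 CPM, 4.10 ± 0.42), and Gas7, a cytoskeletal regulator (238 and 15.4 CPM, 3.80 ± 0.37). These 3 were called in all 22 alternatives. Of the 5 tested cytokine and chemokine genes only Xcl1, a chemokine that draws dendritic cells, was called. Its NK levels were 1929, 1207, 2289.6, 4247, 720 and 734 CPM and its T levels were 381, 540, 383, 303, 46.6 and 19.5 CPM. NK cells were higher in every unit (3.14 ± 0.60, edgeR adjusted p = 0.0314), yet the call was lost in 11 of 22 alternatives. Ccl5 (medians 12188 and 5340.4 CPM), Ccl4 (1891 and 418 CPM) and Ifng (172 and 284 CPM) did not pass. Il2rb, the receptor chain shared by interleukin 2 and 15, was higher by 1.36 ± 0.23 and the chemokine receptor gene Ccr2 by 1.01 ± 0.20.

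Of 14 tested T cell genes 10 were called lower in NK cells and none higher, with a median log2 fold of -1.88, and these 10 were among the 69 lower genes. Cd6, a T cell surface receptor, had 0 UMIs in NK cells and 84.2 to 259 CPM in T cells, at least 28.9-fold lower. Icos, a costimulatory receptor, had medians of 52.5 and 528 CPM (-4.43 ± 0.41), and Trbc2 had 317 and 1456 CPM (-2.12 ± 0.22). Trbc1 did not pass (372 and 615 CPM, edgeR adjusted p = 0.127). Il7r, the interleukin 7 receptor that T cells and ILC1 share, had medians of 17.5 and 182 CPM (-2.07 ± 0.37). It was 1 of 3 ILC1 genes called lower against 1 higher among 7 tested. Of 5 tested interferon-stimulated genes 2 were lower in NK cells, Ifi27l2a (-4.31 ± 0.31) and Ifitm3 (-1.87 ± 0.32). Ifitm3 reached 746 and 734 CPM in EAE T cells and 151 and 114 CPM in EAE NK cells. Of 13 tested MHC class I genes 1 was called, and B2m stood at medians of 6436 and 7055 CPM.

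The comparison partner changed the count of calls. Against the T cells with Nkg7 alone 62 of 1145 genes tested were called, and against CD8 T cells alone 72 of 983. Fewer genes were tested in both, among them 100 and 83 of the 134. Of these, 57 and 53 were called in the same direction, and 0 and 1 had the opposite sign.

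**Figure D2:**
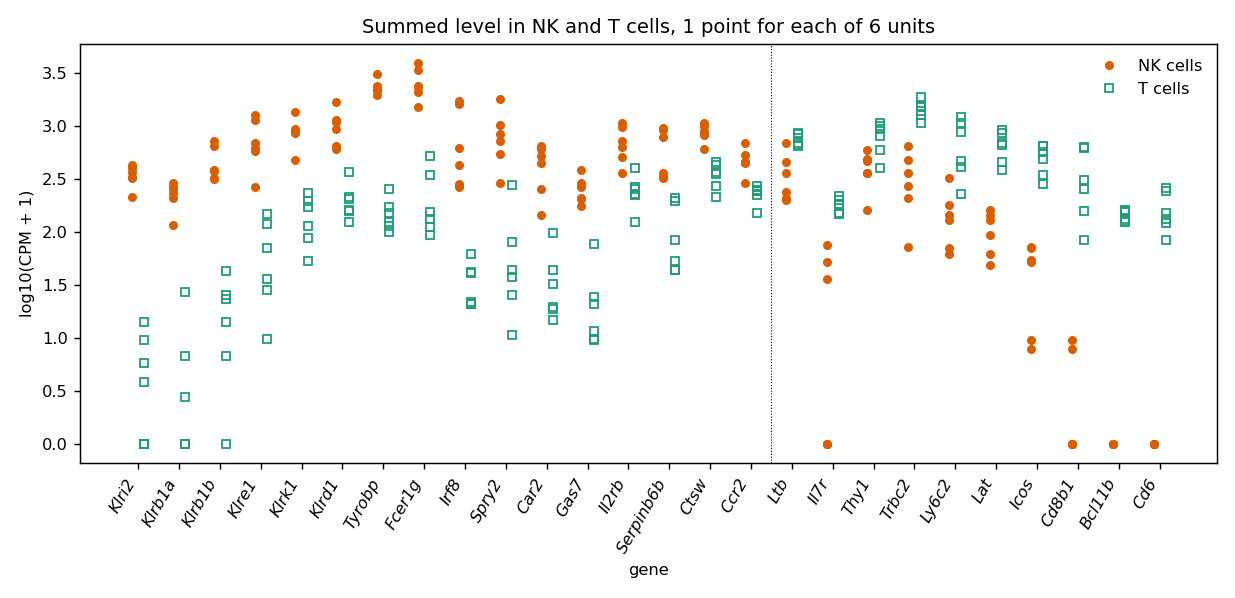
Summed level of called genes in NK cells (circles) and T cells (squares), as log10(CPM + 1), with 1 point for each of the 6 units and genes higher in NK cells left of the dotted line. Klri2 to Ccr2 lie higher in NK cells, and Cd6 and Bcl11b have NK points at 0.

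NK cells of EAE libraries differed from those of Aged libraries in 131 of 1012 genes tested (12.9%), 75 higher in EAE (7.41%) and 56 lower (5.53%), with 234 at an unadjusted p under 0.05. These counts include genes by which the cells were chosen, Gzma among the higher and Ncr1, Nkg7 and Cldn5 among the lower. The fit held all 6 units, but Adult and Juvenile had 1 unit each. Its estimate of the spread therefore came from the Aged pair and the EAE pair alone. The median log2 difference over all tested genes was -0.14, and -0.24 with plain library sizes. Values of EAE 1 and 2 did not overlap those of Aged 1 and 2 in 542 of the 1012 genes (53.6%), so separation of 2 against 2 units is itself common. In endothelial cells the chi-square per degree of freedom of the EAE pair and of the Aged pair was near that of the libraries that were summed. With DESeq2 17 genes were called. Without EAE 1 the count was 41 and without EAE 2 it was 39.

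Plac8 was the clearest gain. This gene, expressed in several blood leukocytes and located at chr5:100553725-100572245 (minus strand, GRCm38), stood at 0 and 0 CPM in Aged 1 and 2, at 1069 and 900 CPM in EAE 1 and 2, at 23.2 CPM in Adult 2 and 3 and at 161 CPM in Juvenile 4. EAE NK cells were at least 17.5-fold higher than Aged NK cells at a floor of 3 counts over the group (edgeR adjusted p = 8.73e-15), and the call held in 16 of 16 alternatives. In T cells of the same libraries Plac8 stood at 34.5 and 43.4 CPM in Aged and at 1252 and 1163 CPM in EAE, so both cell types were high in EAE. Plac8 was present in 41 of 69 EAE NK cells (59.4%, thinned 47.1%) and in 12.5% of EAE endothelial cells (thinned 7.31%).

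Lgals3, encoding galectin 3, stood at 103 and 0 CPM in Aged NK units and at 576 and 533 CPM in EAE NK units (2.91 ± 0.61, edgeR adjusted p = 6.83e-05). T cells of the same libraries had 115 and 107 CPM in Aged and 505 and 495 CPM in EAE. Emb, an immunoglobulin-superfamily adhesion gene, stood at 25.7 and 0 CPM in Aged and at 226 and 332 CPM in EAE (3.78 ± 0.90, edgeR adjusted p = 0.000693). Over both Aged units 3 counts are 56.9 CPM, so the Aged levels of Lgals3 and Emb rest on few UMIs and the size of both folds is uncertain. Adult NK cells had 348 CPM of Emb and Juvenile 4 had 804 CPM, so here the Aged libraries were the ones that stood apart. Serpinb6b had 334 and 360 CPM in Aged and 912 and 970 CPM in EAE (1.51 ± 0.36), with 789 CPM in Adult, and its call was lost without Aged 1, EAE 1 or EAE 2.

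Plac8 and Lgals3 are also macrophage and monocyte genes. Lyz2, a defining gene of those cells that the rule limits, was at 171 and 131 CPM in EAE NK units and at 154 and 216 CPM in Aged NK units. The 7 measured monocyte and macrophage genes other than Plac8 summed to 734 and 970 CPM in EAE NK units and 772 and 576 CPM in Aged ones. This sum holds Lyz2, which the rule limits, and Ccr2, which was called higher in NK than in T cells. It is therefore no measure of macrophage and monocyte RNA alone. Of 3 tested genes of this list 1 was called, Plac8 itself. The part of macrophage and monocyte RNA in these results was not tested.

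Cxcr6 had the largest log2 loss among the named genes. Cxcr6 encodes a chemokine receptor of tissue-resident lymphocytes, ILC1 among them, and lies at chr9:123806475-123811760 (plus strand, GRCm38). In NK cells it stood at 515 and 360 CPM in Aged 1 and 2, 302 CPM in Adult 2 and 3, 292 CPM in Adult 1 and 482 CPM in Juvenile 4, but at 20.6 and 0 CPM in EAE 1 and 2. Juvenile 3, with 4 NK cells, held none. EAE NK cells were thus lower than all other units with at least 5 NK cells, and the log2 difference from Aged was -5.06 ± 0.70 (edgeR adjusted p = 1.8e-10), called in 16 of 16 alternatives. T cells did not share the pattern, at 811 and 524 CPM in Aged and 775 and 781 CPM in EAE.

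By cell, Cxcr6 was found in 10 of 19 Aged, 5 of 15 Adult, 2 of 11 Juvenile and 2 of 69 EAE NK cells, and after thinning in 6 of 16, 3 of 15, 2 of 11 and 0 of 68. In EAE libraries 1.58% of endothelial cells held Cxcr6 (thinned 1.07%), against 2.90% of NK cells, so the NK share in EAE was near that background. Of the 19 NK cells with Cxcr6, 18 held no Eomes and 3, all Aged, held a listed Klra gene. These counts were not thinned, and 10 of the 19 cells were Aged, the group with the lowest median NK depth (2245 UMIs). Eomes was found in 3 of 19 Aged, 10 of 15 Adult, 5 of 11 Juvenile and 30 of 69 EAE NK cells, and after thinning in 3 of 16, 4 of 15, 4 of 11 and 15 of 68. The drop between thinned and unthinned shares leaves the order of these groups unresolved.

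**Figure D3:**
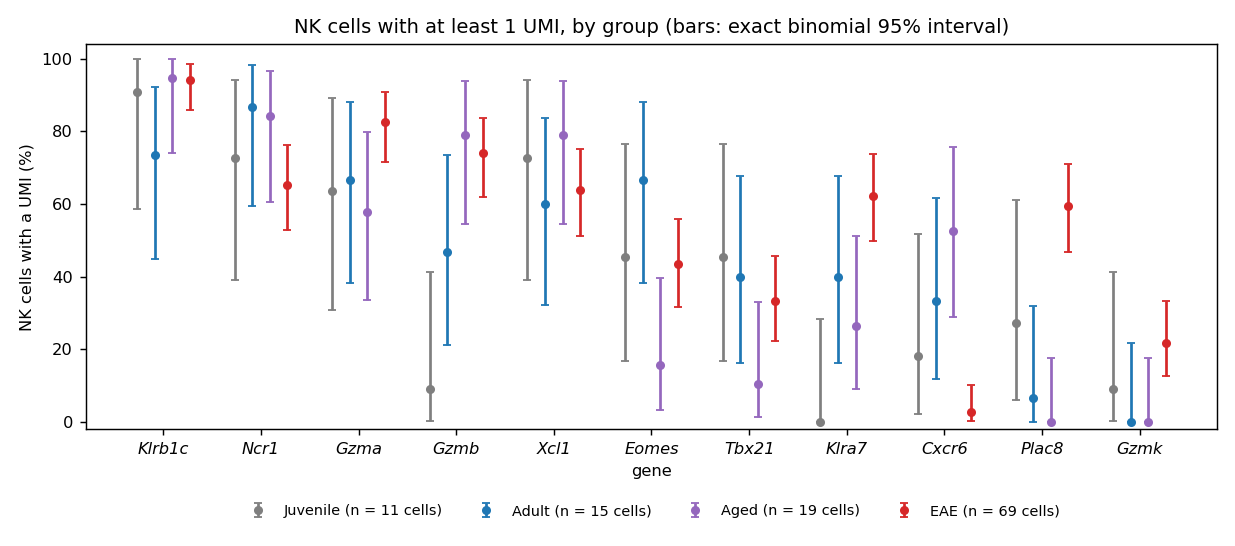
Percentage of NK cells with at least 1 UMI of each gene, by group, with exact binomial 95% intervals that cover counting error only. Cxcr6 was in 2 of 69 EAE cells and 10 of 19 Aged cells, and Plac8 in 41 of 69 and 0 of 19.

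Of 5 tested cytokine and chemokine genes 1, Xcl1, was lower in EAE than in Aged NK cells and none higher. Of 8 tested cytotoxic genes 3 were lower, Gzmb, Gzmc and Cst7, and 1, Serpinb6b, was higher, and the Cst7 call was lost in 10 of 16 alternatives, with a difference of 0.069 without Aged 1. Xcl1 stood at 2289.6 and 4247 CPM in Aged, 720 and 734 CPM in EAE, 1207 CPM in Adult 2 and 3 and 1929 CPM in Juvenile 4 NK cells (EAE against Aged -1.99 ± 0.23, edgeR adjusted p = 8.08e-15). T cells had 383 and 303 CPM of Xcl1 in Aged and 46.6 and 19.5 CPM in EAE. Gzmc, a granzyme gene, stood at 2161 and 504 CPM in Aged and 151 and 61.2 CPM in EAE (-3.74 ± 0.44), and without Aged 1 the difference was -2.04 and no longer called. Gzmc was at 0 CPM in Adult 2 and 3, at 3799 CPM in the 2 cells of Adult 1 and at 643 CPM in Juvenile 4, so EAE NK cells were not below all untreated ones. Gzmb had 1132 and 2879.6 CPM in Aged and 802 and 900 CPM in EAE (-0.99 ± 0.26, edgeR adjusted p = 0.00279), a call lost in 8 of 17 alternatives, with a difference of 0.024 when cells under 1500 UMIs, and with them Aged 2, were left out, and EAE and Adult NK cells did not differ past the threshold (-0.29, edgeR adjusted p = 0.733). The chemokine genes Ccl3 (1595 and 6407 CPM in Aged, 233 and 306 CPM in EAE) and Ccl4 (5839.8 and 21093 CPM in Aged, 528 and 743 CPM in EAE) did not pass.

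Of 8 tested homing receptor genes 2 were lower in EAE, Cxcr6 and Itgb2, and none higher. Klra9, a Ly49 gene, had 1158 and 432 CPM in Aged and 206 and 201 CPM in EAE (-2.10 ± 0.38), with 627 CPM in Adult, and the call was lost without Aged 1 and without a filter on low counts. Itgb2, the beta chain of LFA-1 and Mac-1 integrins, had 283 and 504 CPM in Aged, 96 and 96.1 CPM in EAE and 603 CPM in Adult (-1.77 ± 0.51, edgeR adjusted p = 0.00722), and its call was lost in 6 of 16 alternatives, among them leaving out Aged 2, EAE 1 or EAE 2. Fcer1g had 3936 and 3383 CPM in Aged and 1529 and 2097 CPM in EAE (-0.97 ± 0.19), a call lost without EAE 1 (-0.68), without the filter and with DESeq2. Tyrobp did not pass (edgeR adjusted p = 0.246). Of 13 tested lectin-like receptor genes 2 were lower, Klra9 and Klre1, and none higher. Of 5 ILC1 genes 2 were lower, Cxcr6 and Tmem176a, and none higher. The Tmem176a call was lost in 10 of 16 alternatives, among them leaving out Aged 2, EAE 1 or EAE 2. The 4 genes that chose the NK cells are given as a description. Ncr1 stood at 1080.5 and 1079.8 CPM in Aged and 261 and 349 CPM in EAE, and Gzma at 3473 and 5039 CPM in Aged and 8158 and 7399.5 CPM in EAE. Nkg7 had 4219 and 3599 CPM in Aged and 2419.9 and 2831 CPM in EAE, and Klrb1c had 875 and 1152 CPM in Aged and 836 and 1048 CPM in EAE. Their outcomes in the fit enter the counts of called genes above but are not read as a test, because these genes chose the cells.

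Levels of genes listed for other cell types moved in the same comparison. The 10 endothelial genes summed to 2341 and 2519.6 CPM in Aged NK units and 1104 and 1363 CPM in EAE NK units, with Bsg called lower in EAE (-1.30 ± 0.30). The Bsg call was lost without Aged 1, EAE 1 or EAE 2 and without the filter on low counts, where its difference was -0.68. Cldn5 and Flt1 are on this list and are limited by the rule, so the sum draws in part on values that chose the cells, and Cldn5 (232 and 216 CPM in Aged, 48 and 43.7 CPM in EAE) is given as a description. The haemoglobin gene Hbb-bs had 617 and 864 CPM in Aged and 75.4 and 17.5 CPM in EAE NK units (-3.70 ± 0.50). In T cells of the same libraries Bsg stood at 1079 and 1491 CPM in Aged and 598 and 541 CPM in EAE. Whether the differences in these genes came from NK cells or from free RNA of other cells was not tested.

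**Figure D4:**
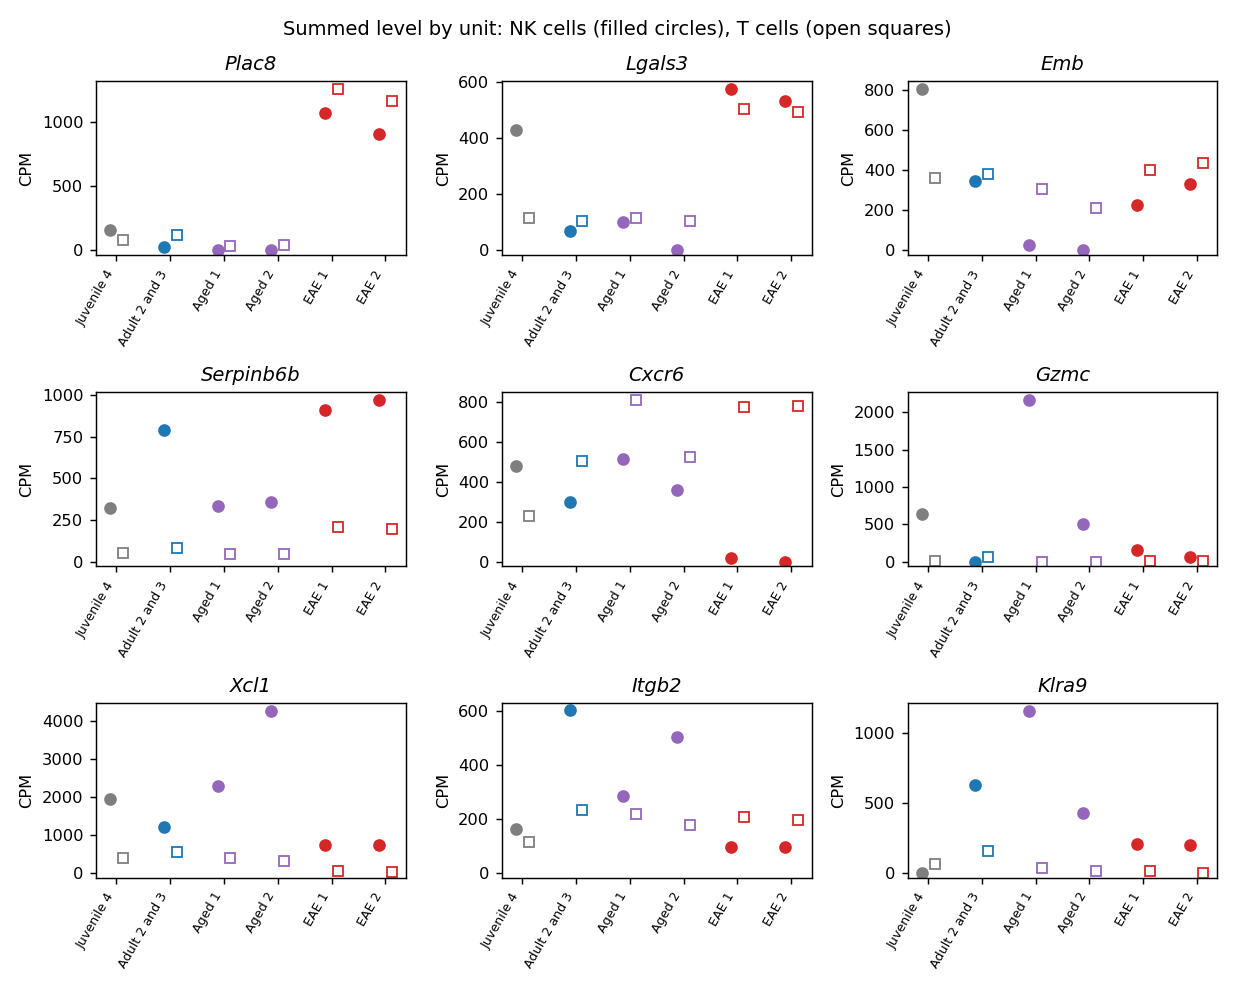
Summed level in CPM of 9 genes called between EAE and Aged NK cells, for NK cells (filled circles) and T cells (open squares) in the 6 units. Plac8 is high in both cell types in EAE, and Cxcr6 is low in EAE NK cells (20.6 and 0 CPM) but not in EAE T cells (775 and 781 CPM).

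Adult mice, the age match of the EAE mice, gave only 1 unit once Adult 2 and 3 were summed, so there was no main test against Adult. The alternative that follows splits this unit. Its spread among Adult units is that between libraries judged alike enough to sum, which may be technical, and its p-values carry this limit. With these libraries taken as separate units, EAE and Adult NK cells differed in 107 of 622 genes tested (17.2%), 56 higher (9.0%) and 51 lower (8.2%), and Aged and Adult NK cells in 6 of 622 (0.965%), 2 higher (0.322%) and 4 lower (0.643%). Plac8 (5.22 ± 0.76, edgeR adjusted p = 0.000289) and Lgals3 (2.90 ± 0.72, edgeR adjusted p = 0.00855) were higher in EAE than in Adult. Cxcr6 (-4.48 ± 1.02, edgeR adjusted p = 0.00471), Itgb2 (-2.69 ± 0.52) and Klra9 (-1.66 ± 0.47) were lower. Genes listed for other cell types were also lower in EAE than in Adult NK cells, among them Ttr (-1.84 ± 0.18), Enpp2 (-2.95 ± 0.46), Bsg (-1.75 ± 0.28) and Itm2a (-2.77 ± 0.60). Whether these differences came from NK cells or from free RNA of other cells was not tested. Klf2, which drives exit from lymphoid tissue, had a log2 difference of -1.37 ± 0.31 in this comparison and was not called between EAE and Aged. Xcl1 and Emb were not called (edgeR adjusted p = 0.129 and 0.649). Adult and Aged share no library, but both comparisons use the same EAE libraries, so they are not independent. Between Aged and Adult, Ets1 (-2.18 ± 0.50) and Ttr (-1.48 ± 0.18) were called lower, and Ttr, a choroid plexus gene, was present in NK cells of every unit at 5436 to 19681 CPM.

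Ribosomal protein genes, listed after their values were seen, were the largest set on the higher side in EAE. Their 87 genes took 24.9% and 23.9% of NK UMIs in Aged 1 and 2, 22.6% in Adult 2 and 3, 29.2% in Juvenile 4 and 35.7% and 34.9% in EAE 1 and 2. The EAE mean was 35.3% ± 0.541 (SD, n = 2) and the Aged mean 24.4% ± 0.695 (n = 2). T cells spanned only 30.5% to 33.9% over the same units, so EAE NK cells lay above, and Adult and Aged NK cells below, the T cells of their own libraries. Of 77 tested, 48 were called higher in EAE than in Aged and none lower, with a median log2 difference of 0.61 against -0.14 over all genes. The median stayed above 0 with plain library sizes (0.50), with relative log expression factors (0.65) and with DESeq2 (0.67), where 13 were called. The count was 30 with every library as its own unit, 19 without EAE 1 and 23 without EAE 2. Because these genes take so large a share of UMIs, a higher share leaves less for other genes in CPM.

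**Figure D5:**
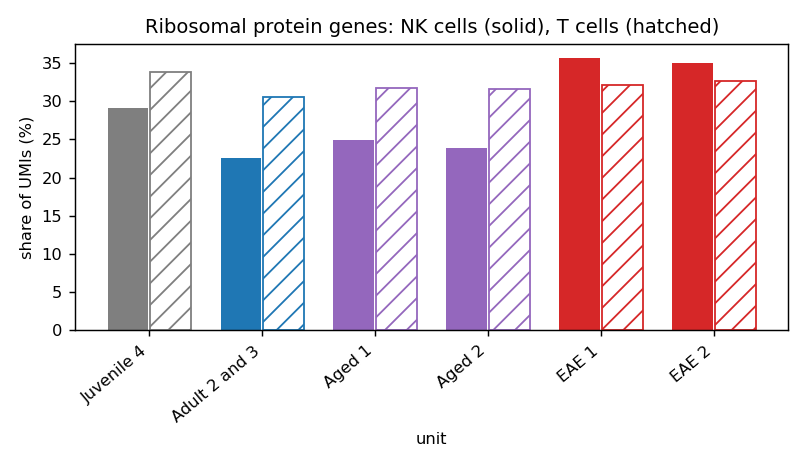
Percentage of UMIs from 87 ribosomal protein genes in NK cells (solid) and T cells (hatched) of the 6 units. NK cells run from 22.6% in Adult to 35.7% in EAE, and T cells from 30.5% to 33.9%.

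Whether NK cells shifted in EAE in another way than T cells was tested as the difference of differences, EAE against the untreated Adult and Aged units in NK against T cells. T cells with a Cd8a or Cd8b1 UMI and no Cd4 numbered 86 and 67 in Aged 1 and 2 and 136 and 108 in EAE 1 and 2. Those with Cd4 and neither Cd8 gene numbered 10 and 6 in Aged and 264 and 246 in EAE. A change of level within T cells and a change in their make-up therefore cannot be told apart. Of 1933 genes tested, 106 were called (5.48%), 83 with a more positive change in NK cells (4.29%) and 23 with a more negative one (1.19%). Cxcr6 had the most negative value (-5.19 ± 0.62, edgeR adjusted p = 2.13e-06) and was called in 12 of 12 alternatives. Ribosomal protein genes made up 58 of the 83, out of 78 tested. Plac8 was not called (edgeR adjusted p = 0.121). The count of calls was 2 without EAE 2 and 4 without EAE 1, so this comparison rests on both EAE libraries together.

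Cycling cells, defined by at least 2 UMIs over the cell cycle genes, were 11 of 114 NK cells (9.65%) and 11.2% of T cells, and after thinning 6 of 110 NK cells and 7.48% of T cells. In adult endothelial cells, which rarely divide, the share was 0.688% (thinned 0.153%). By group the NK counts were 1 of 11 Juvenile, 1 of 15 Adult, 1 of 19 Aged and 8 of 69 EAE cells, too few to order the groups.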

How the data were processed

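Droplet libraries (10x Genomics 3' chemistry, with UMIs) were made from pooled mouse cortex (11 libraries). The authors deposited UMI counts per gene and cell. The submitters' processing notes name bcl2fastq 2.19.1.403, UMI-tools 0.5.3, STAR 2.5.3a, featureCounts 1.6.1 and mm10, and whether counting used strand is not given in the sources used here. Reads of near-identical genes may be split or lost.

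Groups came from the sample labels. Counts were summed per unit and cell type. Units had at least 5 NK cells. Adult 1 (2 cells), Juvenile 1 and 2 (0) and Juvenile 3 (4) had too few and entered the shares only. Genes were tested with edgeR 4.0.16 (TMM factors, filterByExpr, quasi-likelihood F-test, unit block for NK against T cells) with limma 3.58.1 in R 4.3.3, calling Benjamini-Hochberg adjusted p under 0.05. DESeq2 1.42.0 was an alternative. Shares of cells were compared by exact permutation tests over units (scipy 1.17.1). Scrublet was run per library through scanpy 1.11.5. The fits were also run on simulated counts of independent units, with the same fixed spread for all genes. That setting holds no pairs of alike libraries, so it does not address whether the spread between libraries is technical. Thinning drew 1500 UMIs from each cell and left out shallower cells (4 NK cells). Floors used 3 counts. Intervals and floors cover counting error only. Promoter sequences came from RefSeq, and gene positions from GENCODE on GRCm38.

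The members, gene lists and tests were chosen with earlier results of these data known. Named genes were the rule genes, the 10 genes with the largest log2 fold in each direction among those called with the same direction in every unit and at least 50 CPM, up to 4 members of each list by level, and a fixed set of NK genes. For conditions they were the 5 largest in each direction with groups that do not overlap, and the called list members by size. Klrb1f, Cd9, Hcst and others given as values beside a count, and the ribosomal protein genes, were chosen after their values were seen. Some genes that this rule names are not reported here.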

Additional observations from a re-analysis of the deposited data

Results flagged for a closer look

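The change between EAE and untreated Adult and Aged units differed between NK and T cells for the named genes that follow, by edgeR's quasi-likelihood test of the difference itself at a Benjamini-Hochberg adjusted p under 0.05. Values are log2 differences, positive where NK cells changed upward relative to T cells.

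Receptor genes with a positive difference were Klra7 (2.89) and Klre1 (1.24). Klre1 was called lower in EAE than in Aged NK cells, so its value does not show a rise within NK cells. Klra7 had 610 and 944 CPM in EAE NK units and 511, 643 and 0 CPM in Adult, Aged 1 and Aged 2. Its T cell levels were 20 and 15.1 CPM in EAE and 119, 51.8 and 33.3 CPM in the same untreated units. Gzmk, a granzyme gene, had 117 and 96.1 CPM in EAE NK cells and 0 in all untreated NK units. T cells stood at 480 and 474 CPM of Gzmk in Aged and at 165 and 156 CPM in EAE. Its fitted difference of 9.97 depends on the prior count and is no measure of size.

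Other positive differences were those of Socs3, an inhibitor of cytokine signalling (2.89), Lef1, a T cell factor (3.74), Car2 (2.46), and the stress genes Hspa1b (2.00), Dusp1 (1.53) and Hspa1a (1.24). Lef1, at 0 CPM in the NK cells of Adult 2 and 3 and Aged 2, also depends on the prior count, with values from 2.01 to 10.03 and a call in 2 of 9 alternatives. Klre1 was called in 3 of 12, Hspa1b in 2 of 10, Hspa1a in 6 of 12 and Socs3 in 7 of 11. Dusp1 stood at 500 and 550 CPM in EAE NK cells, near the 643 to 719 CPM of untreated NK cells, while T cells had 206 and 218 CPM in EAE and 594 to 716 CPM in untreated units.

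Negative differences were those of Cxcr6 (-5.19), Itgb2 (-1.91), Gzmb (-2.52), the survival genes Bcl2a1d (-3.20) and Bcl2a1b (-2.57), Irf8 (-1.73), Ly6a (-1.59), Nrgn (-2.82) and the proliferation genes Top2a (-2.91) and Hmgb2 (-1.39). Hmgb2 was called in 3 of 12 alternatives, Irf8 and Bcl2a1d in 5 of 12 and 5 of 11, Nrgn in 4 of 10, Bcl2a1b and Ly6a in 6 of 12 each, and Top2a in 5 of 8. The 13 cell cycle genes, Top2a and Hmgb2 among them, summed to 6689 CPM in NK cells of Aged 1. The sum was 1224 CPM in Aged 2, 1114 CPM in Adult 2 and 3, and 2893 and 1162 CPM in EAE 1 and 2. The high untreated level was that of 1 unit, so these values do not show a fall of NK cycling in EAE. In T cells the sum was 1685 to 2141 CPM in untreated units and 3640 and 3379 CPM in EAE. For Ly6a, T cells stood at 175 to 477 CPM untreated and at 1185 and 1155 CPM in EAE, against 254 and 376 CPM in EAE NK cells. For Gzmb, T cells had 66.2 to 133 CPM untreated and 393 and 246 CPM in EAE.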

How the results depend on the processing

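Between NK and T cells, where 134 genes were called, the alternatives called 62 to 651 genes in all, from different numbers tested. Leaving out 1 unit at a time gave 74 (without EAE 1) to 205 (without Juvenile 4). Without a filter on low counts 526 were called, against T cells with Nkg7 62, against CD8 T cells 72, without the unit block 86, and with EAE units alone 651. For EAE against Aged NK cells (131) the counts were 78 with every library as its own unit, 17 with DESeq2, 38 without the filter, and 39 (without EAE 2) to 134 (without Adult 2 and 3) when 1 unit was left out. With the replicate number as a block, which the labels do not tie to a shared animal, batch or day, 136 were called. The difference between NK and T cells in EAE (106) had 49 calls with every library as its own unit, 49 with DESeq2, 24 without the filter, and 2 (without EAE 2) to 137 when 1 unit was left out. EAE against Adult (107) and Aged against Adult (6) were fitted with every library as its own unit alone.

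With 1 unit left out, the Aged minus Adult difference in the NK share of kept cells ran from -0.0109 percentage points (without Aged 1) to 0.159 (without Aged 2). The EAE minus Aged difference in the share of NK among NK and T cells ran from -3.25 (without Aged 2) to 0.649 points (without Aged 1). The Juvenile minus Adult difference in the NK share of kept cells ran from -0.103 (without Adult 1) to 0.00377 points (without Adult 2 and 3). In EAE against Aged NK cells, the log2 difference of Cst7, a protease inhibitor gene, ran from -1.68 (without EAE 2) to 0.069 (without Aged 1), that of Nkg7 was 0.11 without the filter, and that of Gzmb was 0.024 without cells under 1500 UMIs. The cause was not tested. EAE against Aged with at least 10 cells per unit or without cells under 1500 UMIs had 1 Aged unit. Its spread there was taken from the EAE pair alone. With close libraries summed EAE against Aged had 1 unit a group and no residual degrees of freedom. Adult comparisons with a block were not run, since those libraries share fewer than 2 replicate numbers. Alternatives with plain library sizes, without NK cells holding T cell coreceptor UMIs, by group, by depth and with close libraries summed were chosen after seeing the data. With 5 to 36 NK cells a unit, a gene of few UMIs had little chance of a call.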
